A study of Homo sapiens with 18 samples.

Results

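The long non-coding RNAs GAS5, SNHG1, SNHG5, SNHG6, SNHG7, SNHG8, SNHG12, SNHG15, SNHG16 and ZFAS1, all hosts of small nucleolar RNAs (snoRNAs), were followed in THP-1 cells, an established human line from an acute monocytic leukaemia. The 10 host RNAs were the rows of the count table whose Ensembl identifier carries these symbols, 10 of 63677 genes, and all 10 had enough counts to be tested. The cells formed 6 groups of 3 libraries. KD cells received 25 nM of an siRNA against TRAFD1, SCR cells received 25 nM of a scrambled siRNA, and WT cells received none. The siRNA was given as a transfection, and 72 h later the cells of each condition were treated for 4 h with lipopolysaccharide (LPS, a component of bacterial cell walls) at 10 ng/ml or with medium alone (unstimulated). For WT the descriptions differ, since the samples are described as given the transfection mix without siRNA and the series as untreated. Reagent and scrambled siRNA thus cannot be told apart as the source of a difference between SCR and WT. All cells came from the same line, and nothing in the labels says that the libraries of a group came from separate cultures, so the p-values measure the spread between these libraries, which may be technical. Replicates 1 to 3 were the unstimulated libraries and replicates 4 to 6 those with LPS.

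A snoRNA is a short RNA that guides chemical modification of ribosomal RNA, and most human snoRNAs are cut out of the introns of a longer host transcript. In the host RNAs studied here, the spliced exons encode no long protein, and the introns carry the snoRNAs. Several of these genes start at a C followed by a run of pyrimidines, the 5′ terminal oligopyrimidine (TOP) motif that they share with ribosomal protein genes and through which mTORC1 controls translation. Their spliced RNAs are engaged by ribosomes at short reading frames and are then degraded by nonsense-mediated decay, so that the level of such a spliced RNA depends on transcription and on translation-coupled decay. GAS5 was named for its accumulation in growth-arrested cells. Libraries were made by QuantSeq, which reads from the 3′ end of polyadenylated RNA, and no correction for length was made. Spliced and unspliced polyadenylated host RNA cannot be told apart in these counts, and PCR copies could not be removed. Levels are given in CPM, counts per 1000000 counts of the library after TMM scaling.

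On GRCh37, GAS5 (ENSG00000234741, chromosome 1, 173827697 to 173838020, minus strand) and SNHG12 (ENSG00000197989, chromosome 1, 28905050 to 28909644, minus strand) lie on the same chromosome. ZFAS1 (ENSG00000177410) spans positions 47894715 to 47916137 of chromosome 20 on the plus strand. SNHG5 (ENSG00000203875) spans 86360209 to 86388650 of chromosome 6 on the minus strand, and SNHG15 (ENSG00000232956) spans 45022618 to 45026560 of chromosome 7 on the minus strand. SNHG1 (ENSG00000255717) is at 62619450 to 62623425 of chromosome 11, minus strand. SNHG8 (ENSG00000269893) is at 119199858 to 119206471 of chromosome 4, plus strand. SNHG7 (ENSG00000233016) is at 139615818 to 139622636 of chromosome 9, minus strand. SNHG16 (ENSG00000163597) is at 74553809 to 74667067 of chromosome 17, plus strand. The annotation (GENCODE v44, lifted to GRCh37) lists all 10 as lncRNA genes.

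The letters at the start sites show the TOP motif in part of the set. RefSeq starts on GRCh38.p14 were found for 8 of the 10 genes (not for SNHG6 and SNHG15), with 1 start per gene. The lines below give 10 bases before the start and 20 from it, 5′ to 3′ on the gene's strand, for the 3 genes with the motif at the start itself and for SNHG8, where it lies nearby. Capitals mark a C followed by at least 4 bases that are C or T.
SNHG5, chr6:85678714-85678743, minus strand: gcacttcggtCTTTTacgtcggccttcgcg
SNHG12, chr1:28581854-28581883, minus strand: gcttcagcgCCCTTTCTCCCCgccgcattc
ZFAS1, chr20:49278632-49278661, plus strand: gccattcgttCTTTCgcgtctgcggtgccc
SNHG8, chr4:118278752-118278781, plus strand: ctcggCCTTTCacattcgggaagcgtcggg
A C at the start followed by 4 pyrimidines was found in 3 of the 8 genes and in 4.07% of the 35116 RefSeq starts of the same window, read on the gene's strand only. Such a run began within 5 bases of the start in 6 of 8, against 21.1% of all starts. SNHG1 started with C without the run, the RefSeq start of GAS5 was an A, and that of SNHG16 was a G with a run close by. SNHG7, whose letters are not printed, started with C, and a run began within 5 bases of its start. A match or its absence describes these letters at this annotated start and nothing else.

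The snoRNAs that ZFAS1 hosts are shown because ZFAS1 had the largest difference between groups among the 10 host RNAs. They are of the box C/D class, which directs 2′-O-methylation. Capitals mark the box C letters TGATGA and the box D letters CTGA, searched on the RNA strand. Both, in this order, are present in 46.6% of the 541 annotated snoRNAs of 60 to 100 bases.
SNORD12C, chr20:47895477-47895565 of GRCh37, plus strand: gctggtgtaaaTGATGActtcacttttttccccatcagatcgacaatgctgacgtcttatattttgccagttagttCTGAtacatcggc
SNORD12B, chr20:47896856-47896946 of GRCh37, plus strand: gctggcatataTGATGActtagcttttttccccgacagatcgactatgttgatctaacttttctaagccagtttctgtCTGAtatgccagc
SNORD12, chr20:47897220-47897309 of GRCh37, plus strand: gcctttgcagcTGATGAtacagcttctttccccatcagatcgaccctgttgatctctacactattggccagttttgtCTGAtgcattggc
The snoRNAs themselves were hardly counted, since they carry no poly(A) tail. SNORD12C and SNORD12B had 0 to 7 counts per library and SNORD12 had 0 in all 18, against a total of 78108 counts for ZFAS1. SNORD78 in GAS5 had 0 to 3 counts, SNORD1B in SNHG16 had 0 to 4 and SNORD99 in SNHG12 had 1 to 18. A count of 0 allows a level up to 3 counts per library. No statement about mature snoRNAs is possible from these libraries.

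Libraries held 8206023 to 22344279 counts, of which 3.19% to 5.20% were mitochondrial and 0.207% to 0.334% fell on the 10 host RNAs. Monocyte markers were present in all groups, for example FCGR1A, a monocyte Fc receptor, at group means of 263 to 307 CPM and LYZ (lysozyme) at 31.8 to 43.4 CPM, whereas HBB, a red cell gene, had 0 counts. TRAFD1 checked the labels. Its mean without LPS was 8.67 ± 3.14 CPM in KD and 23.7 ± 3.38 CPM in SCR (SD, n = 3; log2 fold change -1.45, edgeR adjusted p 0.0277), and with LPS 14.5 ± 1.12 against 22.7 ± 4.42 CPM (log2 -0.65, edgeR adjusted p 0.262). In unstimulated cells the target also stood lower in KD than in WT (log2 -1.23, edgeR adjusted p 0.00156). With LPS the KD and WT libraries overlapped in TRAFD1 (14.5 ± 1.12 against 17.0 ± 4.76 CPM, log2 -0.23, SE 0.23, edgeR adjusted p 0.563), so that a lower target was not detectable in KD against WT with LPS. TNF, IL1B, CXCL8, CXCL10 and NFKBIA, textbook LPS-induced genes, rose with LPS in all 3 conditions. The groups also differed before LPS. TNF was at 15.9 ± 3.01 CPM in WT, 43.3 ± 7.1 in SCR and 43.2 ± 7.53 in KD (SD, n = 3), and CD14, the LPS co-receptor, at 16.2 ± 4.93, 35.5 ± 6.65 and 26.7 ± 3.62 CPM.

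SNHG6 (ENSG00000245910, chromosome 8, 67832796 to 67838633, minus strand), the host of SNORD87, was the most abundant of the 10, with a mean over the groups of 796 CPM. SNHG5 (host of SNORD50A and SNORD50B) followed with 575 CPM, ZFAS1 with 309, GAS5 with 268, SNHG8 (host of SNORA24) with 228 and SNHG1 (host of SNORD22 and SNORD25 to SNORD31) with 204 CPM. SNHG7 with 83.1, SNHG16 with 82.6, SNHG12 with 51.2 and SNHG15 (host of SNORA9) with 19.8 CPM were lower. The libraries behind these means ran from 107 counts for SNHG15 to 23036 counts for SNHG6. The spread differed between genes: the highest library was 4.09 times the lowest for SNHG15 and 3.6 times for ZFAS1, but 1.56 times for SNHG16. Within groups the coefficient of variation averaged 20.9% for ZFAS1 and 4.78% for SNHG8. The plot of levels by library gives all values.

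**Figure D1:**
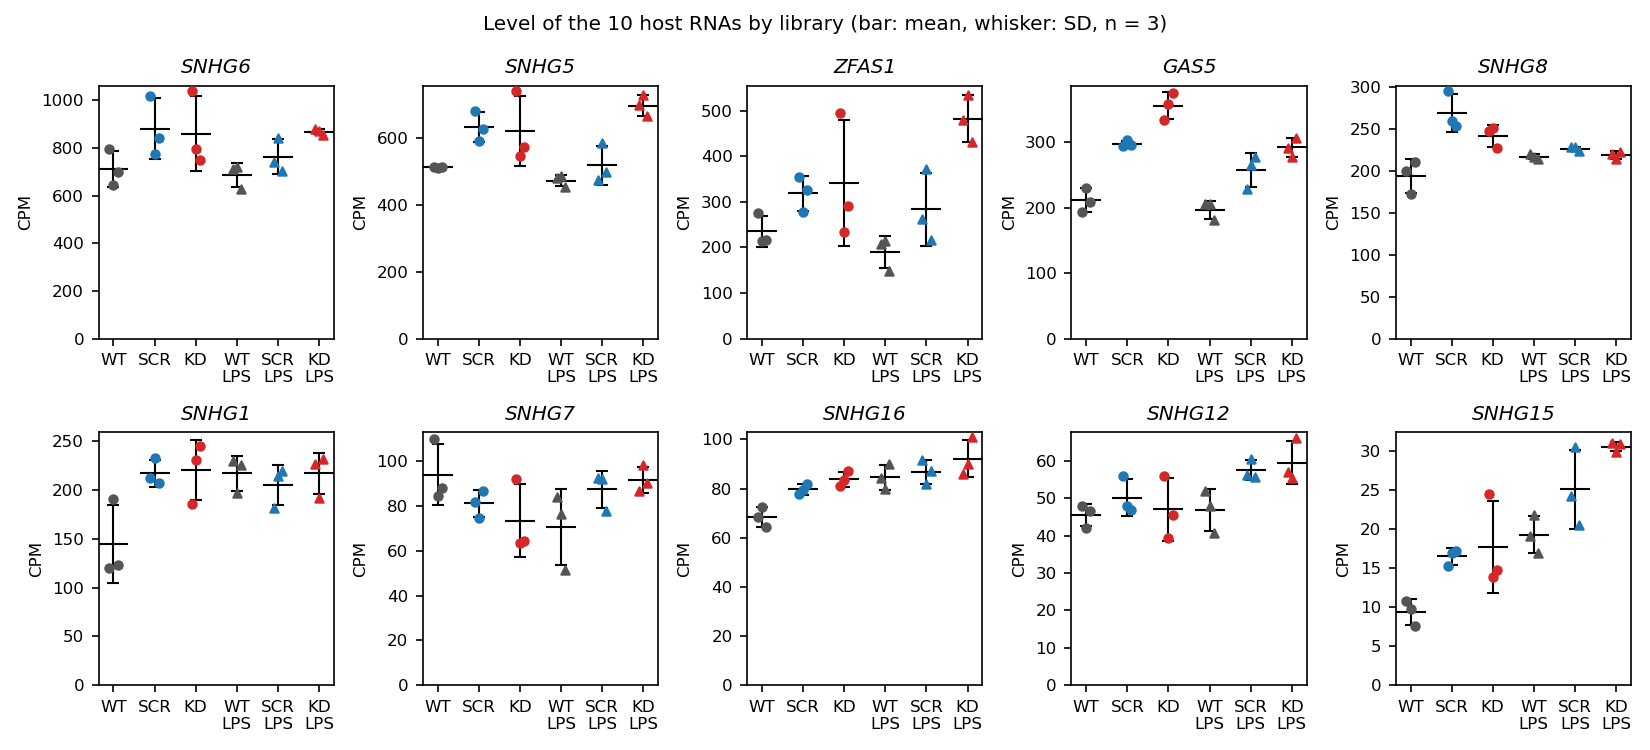
Level in CPM (linear axis from 0) of each of the 10 host RNAs in the 6 groups, circles without LPS and triangles with LPS, 3 libraries per group, with the group mean (bar) and SD (whisker). ZFAS1 reached 483 ± 51.5 CPM in KD with LPS against 190 ± 36.1 in WT with LPS, whereas SNHG8 with LPS stayed between 214 and 228 CPM in all 9 libraries.

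Summed over the 10 host RNAs, unstimulated WT held 2170 to 2330 CPM, SCR 2660 to 3090 and KD 2610 to 3300 CPM. With LPS the sum was 2050 to 2290 CPM in WT, 2380 to 2770 in SCR and 3000 to 3090 in KD. WT was the lowest of the conditions in both states without overlap, SCR and KD overlapped without LPS, and KD was the highest with LPS.

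The first comparison asked what a scrambled siRNA changed relative to WT. In these bulk libraries a change in the share of cells and a change in RNA per cell cannot be told apart. Without LPS, 4 of the 10 host RNAs were higher in SCR by the edgeR test with Benjamini-Hochberg adjustment over 16678 genes (adjusted p under 0.05), and 0 were lower. Of all genes tested, 3.23% were called in this comparison, 1.78% as higher. GAS5 had 194, 230 and 209 CPM in WT and 294, 303 and 296 CPM in SCR. The groups did not overlap, and GAS5 was 41.0% higher in SCR (log2 fold change 0.50, SE 0.091, edgeR adjusted p 0.00388). SNHG8 had 200, 172 and 211 CPM in WT and 295, 260 and 253 CPM in SCR, again without overlap, a difference of 38.5% (log2 0.47, SE 0.086, edgeR adjusted p 0.00393). SNHG15 had 10.8, 9.72 and 7.60 CPM in WT and 15.3, 17.0 and 17.2 in SCR (log2 0.82, SE 0.20, edgeR adjusted p 0.0271). SNHG1 had 120, 191 and 123 CPM in WT and 212, 233 and 207 in SCR (log2 0.59, SE 0.15, edgeR adjusted p 0.0290). WT replicate 2 stood well above the other WT libraries in SNHG1, and without it the log2 fold change of SNHG1 was 0.83. The calls of SNHG1 and SNHG15 were lost when some libraries were left out: without SCR replicate 1, 2 or 3 both were past 0.05, as was SNHG1 without WT replicate 1 and both without WT replicate 3 (SNHG1 edgeR adjusted p 0.0606 to 0.149, SNHG15 0.0652 to 0.141).

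The remaining host RNAs moved less. SNHG5 (log2 0.31, edgeR adjusted p 0.101), SNHG16 (0.22, 0.207) and ZFAS1 (0.44, 0.308) had all SCR libraries above all WT libraries and did not pass. SNHG6 (0.31, 0.17) and SNHG12 (0.14, 0.631) overlapped. SNHG7, host of the H/ACA snoRNA SNORA17, was the only one with a negative value (-0.21, edgeR adjusted p 0.541). In all, 7 of 10 host RNAs lay without overlap above WT, and 0 below, against 11.1% and 11.5% of all genes tested. The median log2 fold change of the 10 was 0.37, and that of all genes 0.006. TNF (log2 1.46, edgeR adjusted p 9.4e-06), NFKBIA (0.63, 3.7e-04) and CD14 (1.14, 0.00311) were also higher in SCR than in WT without LPS, and their part in the difference of the host RNAs was not tested.

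The knockdown was compared with SCR, which received an siRNA as well. Without LPS, 0 of 10 host RNAs were called by edgeR, where 0.0660% of all genes were. At an unadjusted p under 0.05 there was 1 host RNA of 10, next to 12.6% of all genes, and DESeq2 called 0. GAS5 had 334, 358 and 375 CPM in KD, all above the SCR libraries (294 to 303 CPM), which put it 19.6% higher (log2 0.26, SE 0.09, edgeR adjusted p 0.222). SNHG8 had 248, 251 and 227 CPM in KD, all below the SCR libraries at 253 to 295 CPM (log2 -0.15, SE 0.086, edgeR adjusted p 0.472). Of the 10 host RNAs, 1 thus lay without overlap above and 1 below SCR, against 6.45% and 8.63% of all genes. The other 8 overlapped, with log2 fold changes from -0.14 (SNHG7) to 0.11 (SNHG15), and the median of the 10 was -0.002. In ZFAS1 the KD libraries were at 496, 233 and 292 CPM, on both sides of the SCR libraries at 354, 277 and 325 CPM. Leaving out KD replicate 1 turned the ZFAS1 value from 0.096 to -0.28 and the SNHG15 value from 0.11 to -0.21, so the sign of either was set by that library.

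Against WT without LPS, KD was higher in GAS5, SNHG15, SNHG1, SNHG8 and SNHG16. SCR and KD are set against the same WT libraries, so their values stand side by side and are no independent repeat. The mitochondrial share of counts was 3.19% to 3.37% in WT and 3.87% to 4.86% in KD, without overlap, and its part in these differences was not tested. In KD, 5 of 10 host RNAs were higher and 0 lower, where 11.7% of all genes were called, 5.85% as higher. GAS5 was 68.6% higher (log2 0.75, SE 0.091, edgeR adjusted p 2.9e-05), against 41.0% in SCR. SNHG15 had 24.5, 13.8 and 14.7 CPM in KD, all above WT (log2 0.93, SE 0.20, edgeR adjusted p 0.00459), and KD replicate 1 was far above the other libraries of its group. Without that library SNHG15 stood at 0.61 on the log2 scale (edgeR adjusted p 0.0409). SNHG1 had 186, 231 and 245 CPM in KD and overlapped with WT replicate 2 (log2 0.61, edgeR adjusted p 0.00917). Its call was lost when WT replicate 1 or 3 was left out (edgeR adjusted p 0.0574 or 0.0676). SNHG8 (log2 0.32, edgeR adjusted p 0.0205) and SNHG16 (0.29, 0.0419) were the smallest of the called differences. The SNHG8 call was lost when WT replicate 2 (edgeR adjusted p 0.0965) or KD replicate 2 (0.0606) was left out, and that of SNHG16 with WT replicate 1 (0.101) or 3 (0.174) or KD replicate 2 (0.0771) or 3 (0.116) left out. With no filter on low counts both calls were lost (SNHG8 0.0823, SNHG16 0.227), and with library totals in place of TMM that of SNHG16 (0.0697). SNHG16, host of the SNORD1 family, had 68.4, 72.5 and 64.5 CPM in WT and 80.9, 83.5 and 87.1 in KD. In a fit of the 6 libraries of this pair alone, 1 of the 10 host RNAs, GAS5, remained past the threshold.

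SNHG7 went the other way in KD. It had 110, 84.4 and 88.2 CPM in WT and 92.2, 63.5 and 64.6 in KD, a log2 difference of -0.36 (SE 0.16, edgeR adjusted p 0.162). KD replicate 1 overlapped with WT, and without it the difference was -0.56 (edgeR adjusted p 0.0247). The other values were 0.28 for SNHG5, 0.27 for SNHG6, 0.53 for ZFAS1 and 0.046 for SNHG12, with edgeR adjusted p of 0.0767, 0.147, 0.119 and 0.868. Without KD replicate 2, SNHG5 (0.36, edgeR adjusted p 0.0268) and ZFAS1 (0.74, 0.0236) passed. KD libraries lay without overlap above WT in 5 of the 10 host RNAs and below in 0, against 10.8% and 13.5% of all genes, and the median of the 10 was 0.30.

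**Figure D2:**
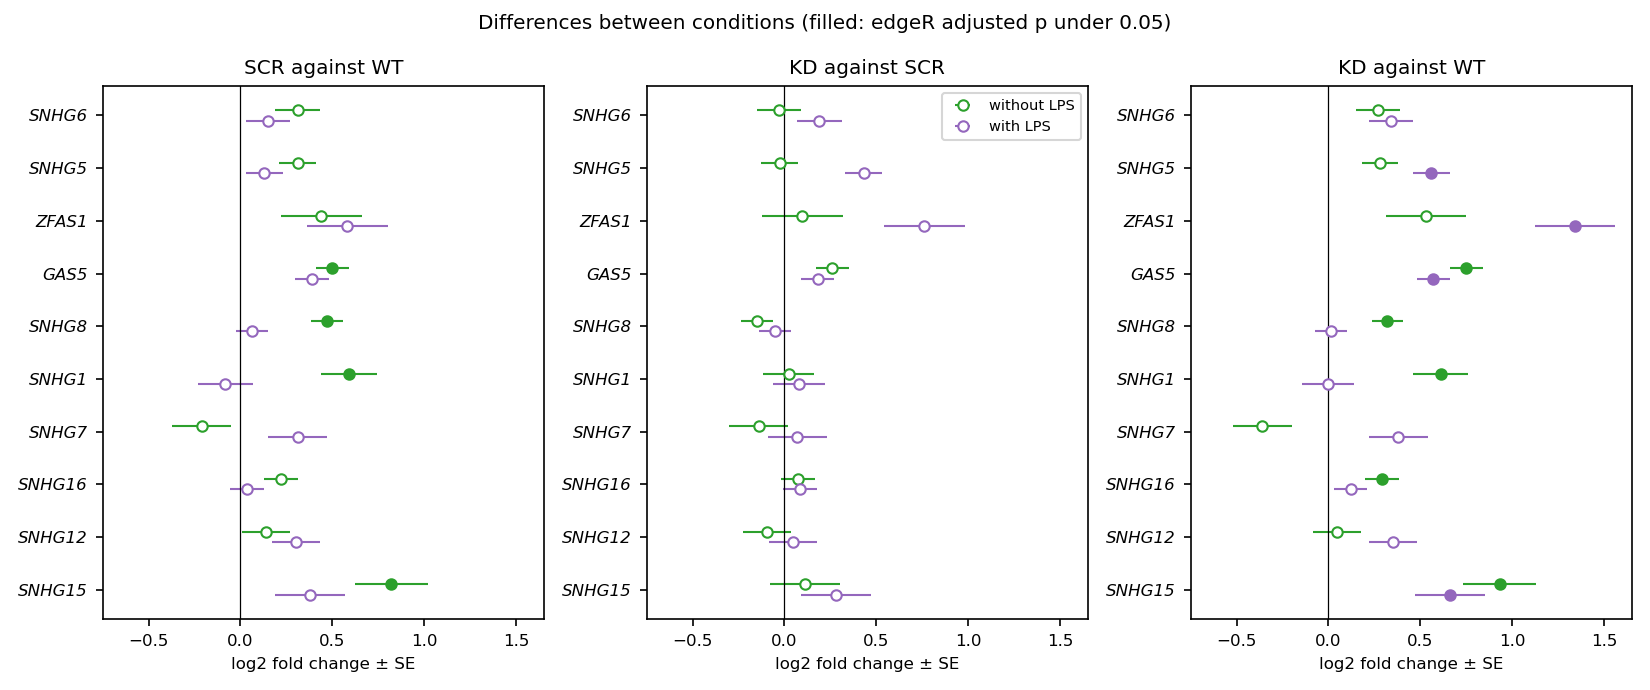
Log2 fold changes ± SE of the 10 host RNAs, in 3 panels for SCR against WT, KD against SCR and KD against WT, green without LPS and purple with LPS. Filled points passed the edgeR adjusted p of 0.05: 4 host RNAs in SCR against WT without LPS, 5 and 4 in KD against WT without and with LPS, and 0 in KD against SCR.

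With LPS, GAS5 and ZFAS1 lay above WT in SCR without passing the test. In SCR against WT, 0 of the 10 host RNAs were called by edgeR, where 0.114% of all genes were, 3 had an unadjusted p under 0.05 (13.7% of all genes did) and DESeq2 called 1, GAS5. GAS5 had 205, 205 and 181 CPM in WT and 228, 265 and 278 in SCR, without overlap (log2 0.39, SE 0.091, edgeR adjusted p 0.1). ZFAS1 had 208, 214 and 148 CPM in WT and 262, 373 and 217 in SCR, without overlap (0.58, SE 0.22, edgeR adjusted p 0.256). In this comparison same-numbered libraries correlated after the group means were removed (r 0.163 to 0.261), but no label states a pairing. With the replicate number as a block, fitted over all 3 conditions, GAS5 (0.38, edgeR adjusted p 0.0459) and ZFAS1 (0.57, 0.0368) passed, 2 of the 10. That block called 135 genes in place of 19. Same-numbered KD and WT libraries with LPS were not correlated in this way (r -0.0737, 0.0367 and -0.00579), so the block does not settle these 2 calls. SNHG8 had 220, 216 and 214 CPM in WT with LPS and 228, 228 and 224 in SCR (log2 0.064, SE 0.086, edgeR adjusted p 0.792). SNHG1 stood at -0.082 (SE 0.15). SCR lay without overlap above WT in 4 host RNAs (GAS5, ZFAS1, SNHG8 and SNHG12) and below in 0, against 10.6% and 12.2% of all genes, and the median of the 10 was 0.22.

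KD and SCR with LPS differed most in ZFAS1 and SNHG5, neither past the threshold. By edgeR 0 of 10 host RNAs were called, as were 0.00% of all genes. At an unadjusted p under 0.05 there were 2 host RNAs, next to 11.8% of all genes, and DESeq2 called 1, SNHG5. SNHG5 had 473, 584 and 496 CPM in SCR and 699, 726 and 664 in KD, without overlap (log2 0.43, SE 0.10, edgeR adjusted p 0.130). ZFAS1 had 262, 373 and 217 CPM in SCR and 480, 535 and 432 in KD, also without overlap (0.76, SE 0.22, edgeR adjusted p 0.201). In SNHG5 and ZFAS1 the gap between the highest SCR and the lowest KD library was smaller than the range of the SCR libraries. The test with adjustment over all genes did not call them. Among the 6 alternatives that kept all libraries of the pair, SNHG5 passed in 4 of 6 and ZFAS1 in 3 of 6: in a fit of this pair alone the edgeR adjusted p was 0.0359 and 0.0345, without the filter on low counts 0.00589 and 5.2e-09, with the replicate block 0.0266 and 0.0106, and DESeq2 gave SNHG5 0.0107. Each of these settings also called more genes in all (425 without the filter, 161 in the pair alone, 137 with DESeq2 and 85 with the block, in place of 0). SNHG6 had all KD libraries (856 to 880 CPM) above SCR (704 to 844 CPM), a log2 difference of 0.19 (SE 0.12, edgeR adjusted p 0.550). SNHG8 had all KD libraries (214 to 222 CPM) just below SCR (224 to 228 CPM), a difference of -0.051. KD was thus without overlap above SCR in 3 host RNAs and below in 1, against 10.8% and 10.7% of all genes.

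Against WT with LPS, KD was higher in 4 of 10 host RNAs and lower in 0, where 10.8% of all genes were called, 6.29% as higher. ZFAS1 had the largest difference of any host RNA in any comparison: 208, 214 and 148 CPM in WT against 480, 535 and 432 in KD. The lowest KD library was above the highest WT library, and the mean was 2.54-fold higher (log2 1.34, SE 0.22, edgeR adjusted p 0.00140). GAS5 had 291, 278 and 307 CPM in KD against 181 to 205 in WT (0.57, SE 0.091, edgeR adjusted p 0.00116). SNHG5 had 479, 484 and 453 CPM in WT and 664 to 726 in KD (0.56, SE 0.10, edgeR adjusted p 0.00274). SNHG15 had 19.1, 21.8 and 17.0 CPM in WT and 31.1, 29.9 and 30.9 in KD (0.66, SE 0.19, edgeR adjusted p 0.0309). ZFAS1, GAS5 and SNHG5 kept their calls in every alternative run for this comparison, and SNHG15 lost its call when KD replicate 4, 5 or 6 or WT replicate 4 or 6 was left out (edgeR adjusted p 0.0717 to 0.152).

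SNHG12 (0.35, edgeR adjusted p 0.0882), SNHG6 (0.34, 0.0699) and SNHG7 (0.38, 0.139) lay above WT without overlap and did not pass. For SNHG7 the sign was opposite to that without LPS. SNHG1 (-0.0028, SE 0.14), SNHG8 (0.013, SE 0.086) and SNHG16 (0.12, SE 0.092) differed by little more than their SE at most. KD was without overlap above WT in 7 of the 10 host RNAs and below in 0, against 18.6% and 16.4% of all genes, and the median of the 10 was 0.36.

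The LPS response was compared within each condition. The mitochondrial share was also higher with LPS in WT (3.82% to 4.46%, against 3.19% to 3.37% without) and SCR (3.72% to 5.20%, against 3.28% to 3.47%), without overlap, and overlapped in KD (4.28% to 5.14% against 3.87% to 4.86%); its part in the LPS differences was not tested. In WT, 3 of 10 host RNAs rose and 0 fell, where 14.3% of all genes were called, 7.01% as higher. SNHG15 rose 2.07-fold, from 7.60 to 10.8 CPM in the medium libraries to 17.0 to 21.8 CPM (log2 1.05, SE 0.20, edgeR adjusted p 8.6e-04). SNHG1 rose from 120, 191 and 123 CPM to 230, 197 and 226 CPM (0.59, SE 0.15, edgeR adjusted p 0.00816), and SNHG16 from 64.5 to 72.5 CPM to 79.9 to 90 CPM (0.31, SE 0.092, edgeR adjusted p 0.0280). All libraries with LPS were above those without in SNHG15, SNHG1 and SNHG16. The SNHG1 call was lost when WT replicate 1 or 3 was left out (edgeR adjusted p 0.0561 or 0.0601), and the SNHG16 call with WT replicate 1, 3, 4 or 6 left out (0.0726 to 0.131). The SNHG16 call was also lost with library totals (0.0868), with no filter (0.172) and in a fit of both groups alone (0.0574). SNHG8 also lay above without overlap (0.15, edgeR adjusted p 0.266), whereas SNHG5 (-0.11, 0.522), SNHG7 (-0.41, 0.0960) and ZFAS1 (-0.31, 0.399) lay below without overlap. Without overlap were thus 4 host RNAs above and 3 below, against 15.0% and 17.6% of all genes.

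In SCR, SNHG15 rose with LPS from 15.3, 17.0 and 17.2 CPM to 24.2, 30.6 and 20.5 CPM (log2 0.61, SE 0.19, edgeR adjusted p 0.0334), and SNHG8 fell from 253 to 295 CPM to 224 to 228 CPM (-0.25, SE 0.086, edgeR adjusted p 0.0485). These were 2 of 10 host RNAs, where 17.2% of all genes were called, 8.64% as higher and 8.56% as lower. The SNHG15 call was lost when any 1 of SCR replicates 1 to 5 was left out, and the SNHG8 call with any 1 of the 6 libraries left out (edgeR adjusted p 0.0513 to 0.24 in these fits). The SNHG8 call was kept in 3 of 12 alternatives, since it was also lost with DESeq2 size factors (0.0541), with no filter (0.177) and in a fit of both groups alone (0.0552). The SNHG15 call was also lost with library totals (0.0531). GAS5 (-0.21, edgeR adjusted p 0.120) and SNHG5 (-0.29, 0.0543) also lay below their medium libraries without overlap, and SNHG16 (0.12, 0.390) above. Above were thus 2 and below 3 host RNAs, against 17.5% and 19.8% of all genes. Without SCR replicate 5, the highest with LPS in SNHG5, the SNHG5 value passed (-0.38, edgeR adjusted p 0.0204).

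In KD, SNHG15 rose with LPS from 24.5, 13.8 and 14.7 CPM to 31.1, 29.9 and 30.9 CPM (log2 0.79, SE 0.19, edgeR adjusted p 0.00952), and GAS5 fell from 334, 358 and 375 CPM to 291, 278 and 307 CPM (-0.28, SE 0.09, edgeR adjusted p 0.0456). These were 2 of 10 host RNAs, where 11.5% of all genes were called, 6.41% as higher and 5.05% as lower. SNHG15 was 1 host RNA without overlap above medium and GAS5 and SNHG8 (-0.15, edgeR adjusted p 0.290) were 2 below, against 12.8% and 12.7% of all genes. The GAS5 call was lost without KD replicate 2, 3, 4, 5 or 6 (edgeR adjusted p 0.0644 to 0.175), and the SNHG15 call without KD replicate 3 (0.0619). In a fit of both groups alone neither passed (GAS5 0.114, SNHG15 0.0557), and with no filter GAS5 did not (0.0856). KD replicate 1 had a large part in these counts. Without it 6 of 10 host RNAs were called, 5 higher and 1 lower, and 3150 genes in all in place of 1912. The host RNAs higher with LPS were then SNHG15 (1.10), ZFAS1 (0.88, edgeR adjusted p 0.00210), SNHG7 (0.52, 0.0239), SNHG12 (0.49, 0.0109) and SNHG5 (0.32, 0.0203).

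**Figure D3:**
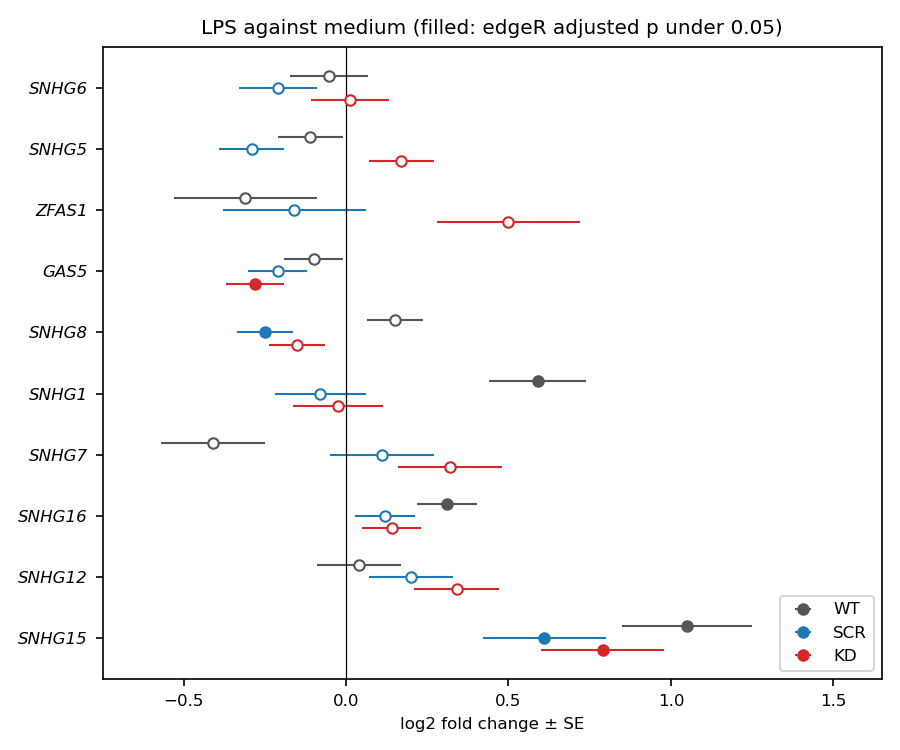
Log2 fold change ± SE of the 10 host RNAs with LPS against medium in WT (grey), SCR (blue) and KD (red). Filled points passed the edgeR adjusted p of 0.05: SNHG15 was higher with LPS in all 3 conditions (1.05, 0.61 and 0.79), SNHG1 and SNHG16 passed in WT, SNHG8 in SCR and GAS5 in KD.

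SNHG15 was thus called as higher with LPS in WT, SCR and KD, with log2 fold changes of 1.05, 0.61 and 0.79, and the differences between these responses did not pass (SCR minus WT -0.44, SE 0.28; KD minus WT -0.26, SE 0.28; KD minus SCR 0.18, SE 0.27; edgeR adjusted p 0.611, 0.699 and 0.899). GAS5 had negative LPS values in all 3 conditions (-0.10, -0.21 and -0.28), past the threshold in KD.

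Whether the LPS response differed between conditions was tested directly by interaction contrasts. By edgeR 0 of 10 host RNAs passed in each of the 3 contrasts, where 0.00% (KD minus SCR), 0.234% (SCR minus WT) and 0.360% (KD minus WT) of all genes were called. At an unadjusted p under 0.05 there were 2, 3 and 4 host RNAs, next to 7.64%, 9.96% and 15.5% of all genes, and DESeq2 called 0 in each. The largest values were those of ZFAS1 (KD minus WT 0.81, SE 0.31, edgeR adjusted p 0.226; KD minus SCR 0.67, SE 0.31, 0.642), SNHG7 (KD minus WT 0.73, SE 0.23, 0.162) and SNHG1 (SCR minus WT -0.67, SE 0.21, 0.305; KD minus WT -0.61, SE 0.21, 0.182). SNHG5 stood at 0.45 (SE 0.14, edgeR adjusted p 0.569) for KD minus SCR. These values depended on single libraries. Without KD replicate 1, 4 host RNAs passed in KD minus WT: ZFAS1 (1.19, edgeR adjusted p 0.00907), SNHG7 (0.93, 0.0123), SNHG5 (0.43, 0.0363) and SNHG1 (-0.72, 0.0309), and 1313 genes in place of 60. Without WT replicate 2, the library with high SNHG1, SNHG1 passed in SCR minus WT (-0.91, edgeR adjusted p 0.0134) and KD minus WT (-0.86, 0.0138).

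Ordered by group mean, GAS5 ran from WT with LPS (197 ± 13.8 CPM) and WT (211 ± 18.3) over SCR with LPS (257 ± 25.8), KD with LPS (292 ± 14.7) and SCR (297 ± 4.76) to KD (356 ± 20.2 CPM; SD, n = 3 each). Neighbours whose means lay closer than the sum of their SDs were WT with LPS and WT, SCR with LPS and KD with LPS, and KD with LPS and SCR, while the other steps were larger. For ZFAS1 the order was WT with LPS (190 ± 36.1 CPM), WT (235 ± 34.5), SCR with LPS (284 ± 80.3), SCR (319 ± 38.7), KD (341 ± 138) and KD with LPS (483 ± 51.5 CPM), and each step between neighbours was smaller than the sum of their SDs. SNHG15 was lowest in WT (9.37 ± 1.62 CPM), followed by SCR (16.5 ± 1.07), KD (17.7 ± 5.94), WT with LPS (19.3 ± 2.39), SCR with LPS (25.1 ± 5.08) and KD with LPS (30.6 ± 0.616 CPM). The step from WT to SCR exceeded the spread, and the later steps did not. SNHG5 was lowest in WT with LPS (472 ± 16.5 CPM) and WT (511 ± 2.56) and highest in KD with LPS (696 ± 30.7), with SCR with LPS (518 ± 58.3), KD (620 ± 105) and SCR (631 ± 44.9 CPM) between. Its steps from WT upward were each within the spread. SNHG1 was lowest in WT (145 ± 40.1 CPM, with replicate 2 at 191 CPM) and had means of 205 to 221 CPM in the other 5 groups, with no step beyond the spread.

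The libraries of a group differed among themselves in a way that divided the 10 host RNAs. Within each of the 6 groups the library highest in ZFAS1 was also the highest in SNHG5, although the SNHG5 values of unstimulated WT lay within 508 to 512 CPM, and in 5 of 6 groups it was the highest in SNHG6. In 4 of 6 groups each, this same library was the lowest of its group in GAS5, in SNHG1 and in SNHG16. After the group means were removed, log2 CPM over the 18 libraries correlated with Pearson's r of 0.90 between ZFAS1 and SNHG5, 0.86 between ZFAS1 and SNHG6, 0.85 between ZFAS1 and SNHG15 and 0.71 between GAS5 and SNHG1, and of -0.58 between SNHG1 and SNHG8. Over the 45 pairs r ran from -0.58 to 0.90 with 23 positive. These values describe libraries that share depth, scaling and the total, and KD replicate 1 weighs in them: it was the highest of its group in ZFAS1 (496 CPM against 233 and 292), SNHG5, SNHG6, SNHG7, SNHG12 and SNHG15, and the lowest in GAS5, SNHG1 and SNHG16. The map of deviations by library shows this column and the weaker columns of the same kind in the other groups.

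**Figure D4:**
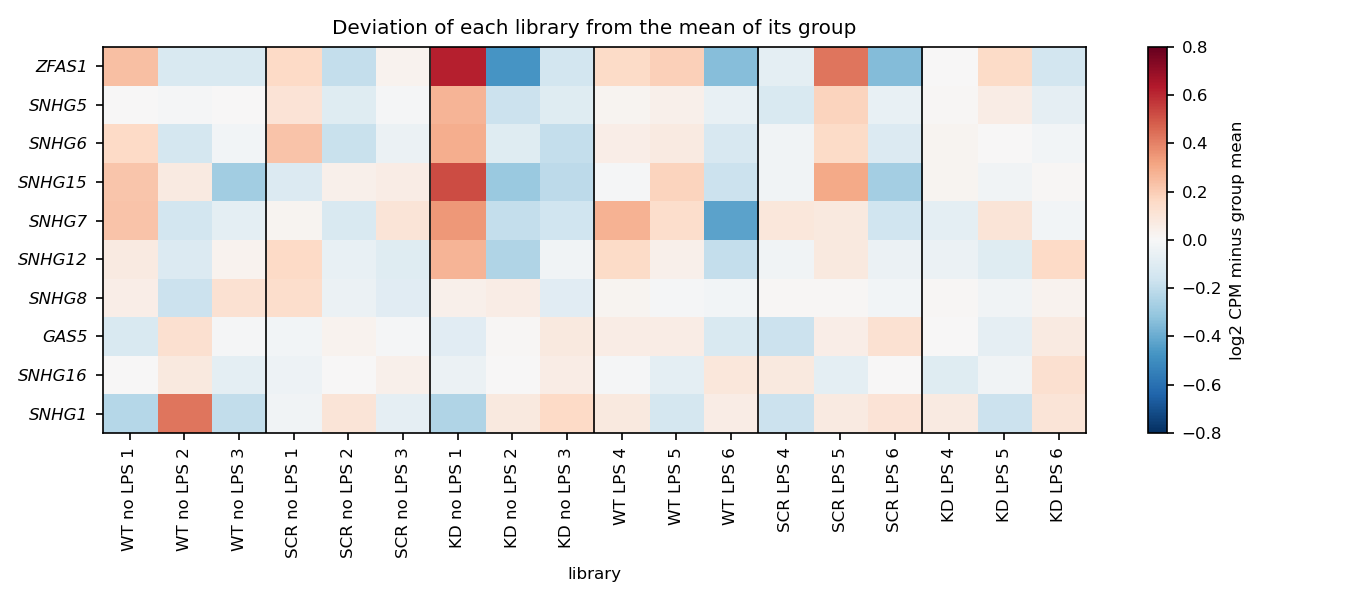
Difference of log2 CPM from the mean of its group (colour, red above and blue below) for each host RNA (rows) in each of the 18 libraries (columns, groups divided by lines, numbers are replicates). ZFAS1, SNHG5, SNHG6 and SNHG15 are red together in KD replicate 1 without LPS and SCR replicate 5 with LPS, whereas GAS5, SNHG16 and SNHG1 are blue in the former.

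Neighbouring genes bear on what was counted. The authors counted reads in 500 bases of each gene, and whether strand was used is not given in the sources used here, so that reads of a host and of a gene on the opposite strand could be mixed where they overlap. In its last 500 bases, by the annotation used here, SNHG7 overlaps DIPK1B, whose counts came to 11.4% of those of SNHG7, SNHG8 overlaps PRSS12 (11.1%), and SNHG12 touches TRNAU1AP (46.2%) over 8 bases. DIPK1B fell with LPS in SCR (-0.69, edgeR adjusted p 0.0479), where SNHG7 stood at 0.11. With LPS in WT both lay below medium without overlap and neither passed (DIPK1B -0.65, edgeR adjusted p 0.0629; SNHG7 -0.41, 0.0960). The part of DIPK1B reads in the SNHG7 values was not tested.

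ZFAS1 and ZNFX1, which encodes an RNA-binding sensor of viral RNA, start head to head on opposite strands and overlap over 249 bases at their starts. ZNFX1 had 250 ± 39.5 CPM in WT, 253 ± 9.37 in SCR and 203 ± 39.0 in KD without LPS, and 387 ± 51.2, 298 ± 16.6 and 235 ± 15.8 CPM with LPS (SD, n = 3 each). It was lower in KD than in WT with LPS (log2 -0.72, SE 0.13, edgeR adjusted p 0.00253), where ZFAS1 was higher (1.34), and rose with LPS in WT (0.63, SE 0.13, edgeR adjusted p 0.00146), where ZFAS1 stood at -0.31. With LPS the signs were also opposite in KD against SCR (ZNFX1 -0.34, ZFAS1 0.76) and SCR against WT (-0.37 and 0.58), without overlap in either gene. They were opposite too without LPS in KD against SCR (-0.32 and 0.096) and KD against WT (-0.30 and 0.53). The LPS response in SCR was of this kind as well (0.24 and -0.16). The signs were the same for LPS in KD (0.21 and 0.50) and in SCR against WT without LPS (0.016 and 0.44). In these further comparisons neither gene passed.

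The other genes of the pathway were taken from lists of snoRNA hosts, snoRNP proteins, decay factors, regulators of TOP translation and other lncRNAs. In KD against WT without LPS, 14 of 25 tested ribosomal protein genes that host snoRNAs were higher and 0 lower, with a median log2 fold change of 0.32, next to 0.30 for the 10 host RNAs and -0.008 for all genes. Among them were RPS2 (0.60, SE 0.067, edgeR adjusted p 1.7e-05), RPL3 (0.58, SE 0.078, 7.9e-05) and RPL10 (0.65, SE 0.092, 1.2e-04). Ribosomal protein genes have many near-identical pseudogenes, so their counts are uncertain. Of 22 other coding hosts, 6 were higher and 1 lower, led by HSPA9, a mitochondrial chaperone (0.54, edgeR adjusted p 0.00106), and EEF1B2, a translation elongation factor (0.46, 0.00143). Of 13 other lncRNA hosts only SNHG9 was called (0.68, edgeR adjusted p 0.0481), and their median was 0.03. Of 17 snoRNP proteins and assembly factors, 5 were higher, among them NHP2 (0.65, edgeR adjusted p 7.4e-04), a core protein of H/ACA particles, and NUFIP1 (0.71, 0.00561), an assembly factor of box C/D particles.

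Of 14 decay factors 0 were higher and 1 was lower, and their median was -0.008. Of 12 regulators of mTORC1 and TOP translation 2 were higher: EIF4EBP1, which encodes the translation repressor 4E-BP1 (0.57, edgeR adjusted p 0.00561), and RHEB, the GTPase that activates mTORC1 (0.42, 0.0238). A list of 10 lncRNAs that are not snoRNA hosts gave 1 higher, MIR155HG (0.95, edgeR adjusted p 0.00857), and 1 lower, LINC00926 (-0.92, 6.4e-04). In SCR against WT without LPS, 3 ribosomal protein hosts (RPL3 0.44, RPL10 0.47 and RPS2 0.34) and 2 other coding hosts (EEF1B2 0.40 and HSPA9 0.36) were higher, and 0 of the other lncRNA hosts, snoRNP proteins, decay factors and TOP regulators were called by edgeR.

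**Figure D5:**
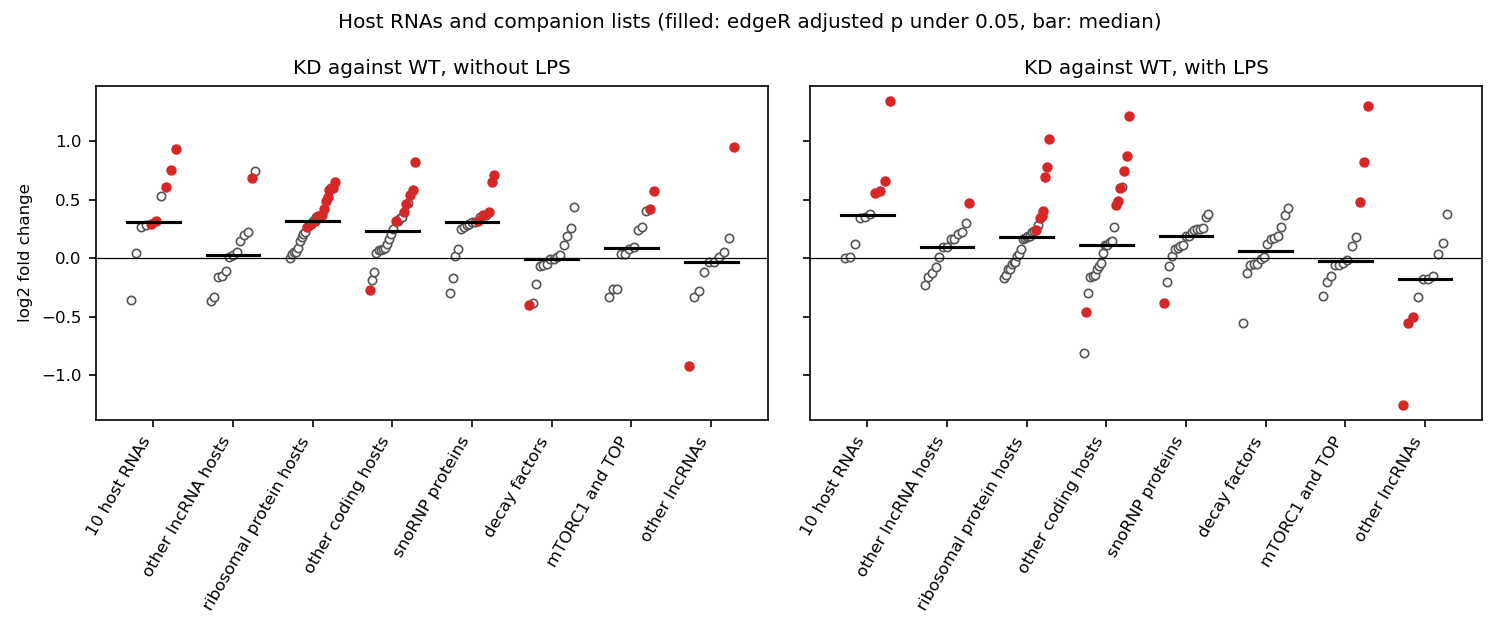
Log2 fold changes of the 10 host RNAs and of the genes of 7 companion lists (columns, each point a gene) in KD against WT without LPS (left) and with LPS (right), with the median as a bar. Filled points passed the edgeR adjusted p of 0.05: without LPS 5 of 10 host RNAs and 14 of 25 ribosomal protein hosts, with LPS 4 of 10 and 7 of 25.

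With LPS, KD against WT called 7 of 25 ribosomal protein hosts as higher and 0 as lower, led by RPL4 (0.69, SE 0.12, edgeR adjusted p 0.00274), with a median of 0.17 next to 0.36 for the 10 host RNAs. The other coding hosts gave 6 higher and 1 lower of 22, with EIF4A2 (0.87, edgeR adjusted p 0.00324), a translation initiation helicase, and TAF1D (0.74, 0.00332), a subunit of the RNA polymerase I factor SL1. Among 13 other lncRNA hosts, SNHG32 passed (0.47, SE 0.10, edgeR adjusted p 0.00803), with 422 ± 55.8 CPM in WT and 585 ± 19.6 in KD (SD, n = 3 each). The snoRNP proteins gave 0 higher and 1 lower of 17 (PIH1D1 -0.38, edgeR adjusted p 0.00792), and the decay factors 0 of 14. EIF4EBP1 (0.82, edgeR adjusted p 0.00116), MYC, a transcription factor of ribosome biogenesis genes (1.30, 0.00324), and RHEB (0.48, 0.0140) were higher in the list of TOP regulators. Among the other lncRNAs, 0 were higher and 3 lower: LINC00926 (-1.25, edgeR adjusted p 2.5e-04), NEAT1 (-0.55, 0.0323) and MIR17HG (-0.50, 0.0372). KD against SCR called 0 genes of these 7 lists in either state by edgeR.

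In the LPS response, SNHG17 behaved like SNHG15 in that it was higher in WT (0.70, edgeR adjusted p 4.4e-04), SCR (0.54, 0.00435) and KD (0.71, 5.8e-04), whereas EPB41L4A-AS1 was lower in all 3 (-0.44, -0.32 and -0.35, edgeR adjusted p 0.00243, 0.0208 and 0.0186). HSPA8, the constitutive Hsc70 chaperone and host of SNORD14, was higher in all 3 (0.84, 0.85 and 0.77, edgeR adjusted p 1.1e-07, 1.2e-07 and 6.5e-07). EIF4EBP1 was lower in all 3 (-0.92, -0.80 and -0.67). Decay factors were higher in 1, 3 and 3 of 14 cases in WT, SCR and KD, next to 7.01%, 8.64% and 6.41% of all genes. Among them was UPF3B in SCR (0.91, edgeR adjusted p 9.5e-05) and KD (0.46, 0.0350), an adaptor between the exon junction and the decay machinery. Of 17 snoRNP proteins, 5, 6 and 1 were higher and 2, 1 and 1 lower in WT, SCR and KD. Of 22 other coding hosts, 5, 6 and 2 were higher and 0, 1 and 1 lower. NEAT1 rose in WT (0.72, edgeR adjusted p 0.00385) and SCR (0.64, 0.00859), and OIP5-AS1 fell in all 3 (-0.70, -0.57 and -0.54).

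Over the 18 libraries, the genes outside the set whose log2 CPM followed the mean of the 10 host RNAs most closely included RPL4 (Pearson's r 0.961), a ribosomal protein gene and snoRNA host, FABP5 (0.954), SSBP1 (0.940) and HMGN1 (0.938). These values describe the same 18 libraries that the differences come from, with shared scaling.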

How the data were processed

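The data were gene-level read counts of 18 QuantSeq 3′ libraries from THP-1, with 3 in each of 6 groups. The authors trimmed reads, aligned them to GRCh37 with HISAT and counted them with featureCounts (RSubread 1.6.2) in an Ensembl 75 annotation cut to 500 bases per gene; the deposited values are raw counts per gene, 8206023 to 22344279 per library. Which end of the gene was kept is worded ambiguously, and the strand setting is not given in the sources used here. The table has 0 unused columns of per-sample values.

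The 10 host RNAs and the lists were chosen with earlier results of these data known. Symbols came from GENCODE v44 lifted to GRCh37, and sequences from GENCODE and RefSeq (GRCh38.p14). Genes with low counts were removed by filterByExpr, leaving 16678. A model with a mean per group over all 18 libraries was fitted with edgeR 4.0.16 in R 4.3.3 (TMM, quasi-likelihood F test), and 12 contrasts were tested with Benjamini-Hochberg adjustment over all genes at 0.05. SE was derived from the log2 fold change and F (their ratio with F under a square root). The common biological coefficient of variation was 0.17. The script was tested on simulated data with a smaller spread than that of these libraries, which leaves its power here unmeasured. With 3 libraries against 3 an exact permutation test cannot go below 0.1. Named genes were all 10 host RNAs, TRAFD1, 5 LPS-induced genes, up to 3 genes per companion list and comparison with the smallest adjusted p, overlapping genes and the 5 genes most correlated with the mean of the hosts. Marker genes of the sample check are shown as examples, and a few genes that this rule names are not reported here.

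Alternatives were DESeq2 size factors in edgeR, library totals without TMM, no filter on low counts, DESeq2 1.42.0, only the groups compared, the replicate number as a block, and leaving out each library. Same-numbered libraries were checked for shared deviations. In SCR against WT with LPS all 3 pairs correlated above 0.1 (r 0.261, 0.163 and 0.253), the only comparison where they did. The labels state no pairing, and this pattern comes from the same expression values that were tested. The floor of 3 counts covers counting error only, since PCR copies could not be removed by molecular identifiers. The SE takes in the estimated spread between libraries.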

Additional observations from a re-analysis of the deposited data

Results flagged for a closer look

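SNHG8 stood out because its libraries moved in opposite directions with LPS. Every WT library with LPS lay above every WT library without (log2 fold change 0.15), whereas every library with LPS lay below those without in SCR (-0.25) and in KD (-0.15). Of all genes tested, 15.0% lay above in WT, 19.8% below in SCR and 12.7% below in KD without overlap. The WT and KD responses were not called (edgeR adjusted p 0.266 and 0.290), and the SCR call was kept in 3 of 12 alternatives. The difference between the responses was tested by the interaction contrast and did not pass: SCR minus WT was -0.41 (SE 0.12, edgeR adjusted p 0.301) and KD minus WT -0.30 (SE 0.12, edgeR adjusted p 0.255). The 9 libraries with LPS lay between 214 and 228 CPM, and the 9 without between 172 and 295 CPM.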

How the results depend on the processing

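Of the 20 called differences of single host RNAs, 7 kept their call under all alternatives: GAS5 in KD against WT in both states and in SCR against WT without LPS, SNHG8 in SCR against WT without LPS, SNHG15 with LPS in WT, and SNHG5 and ZFAS1 in KD against WT with LPS. Over 120 values of single host RNAs and 6 alternatives that kept all libraries, 643 kept direction and side of the threshold, 48 passed it newly, 17 fell below it and 12 changed sign. With 1 library left out, 797 kept both, 15 passed newly, 45 fell below and 43 changed sign. The cause was not tested.

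The number of host RNAs called moved as follows. With the replicate block it was 7 (SCR against WT without LPS), 8 and 7 (KD against WT without and with LPS), 2 each (KD against SCR and SCR against WT with LPS), 4 (LPS in KD) and 3 (LPS response in KD minus WT). The labels state no pairing, so the block removes a shared number and no known batch. Only in SCR against WT with LPS did all same-numbered libraries correlate above 0.1. Not every library correlated best with its own number. With only the groups compared it was 1 (KD against WT without LPS), 2 (KD against SCR with LPS) and 0 (LPS in KD). With no filter on low counts it came to 2 each (KD against SCR and SCR against WT with LPS), 1 (LPS in SCR), and 1, 1 and 3 for the LPS response in KD minus SCR, SCR minus WT and KD minus WT. The DESeq2 test called 1 each in KD against SCR and SCR against WT with LPS, and DESeq2 size factors in edgeR 1 for LPS in SCR.

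Counts over all genes moved by more than 1.5 times in part of the comparisons. The block values of KD against WT and of LPS in KD are listed beside them and moved by less. KD against SCR without LPS had 11 calls, which became 239 with DESeq2, 320 with no filter, 0 in the pair alone and 183 with the block, and with LPS 0 became 137, 425, 161 and 85. SCR against WT without LPS had 538 and came to 918 with DESeq2 and 934 with the block, and with LPS 19 became 207, 593 (no filter), 47 (pair alone), 135 (block) and 36 (library totals). KD against WT had 1951 without LPS and 1808 with LPS, and the pair alone gave 280 and 3235 and the block 2423 and 2566. LPS in KD had 1912, and the pair alone gave 847 and the block 2689. Calls among the host RNAs under the block thus stand beside a rise over all genes in these comparisons. For the LPS response, KD minus SCR went from 0 to 132 with no filter, SCR minus WT from 39 to 82 with DESeq2 and 241 with no filter, and KD minus WT from 60 to 256, 729, 23 (4 groups alone) and 547 (block).

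With 1 library left out, the number of host RNAs called ran from 2 to 4 (SCR against WT without LPS), 3 to 6 (KD against WT without LPS), 1 to 3, 0 to 1 and 0 to 6 (LPS in WT, SCR and KD), 0 to 1 (LPS response in SCR minus WT) and 0 to 4 (KD minus WT).

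Sign changes concerned values near 0 that were not called. In KD against SCR without LPS, a fit of the pair alone gave SNHG5 0.015 and SNHG6 0.0099. In KD against WT with LPS, SNHG8 was -0.012 with DESeq2 size factors and with DESeq2, -0.011 with library totals and -0.010 in the pair alone. With library totals SNHG12 was -0.025 for LPS in WT. SNHG6 for LPS in KD was -0.0026 with DESeq2 size factors, -0.047 with library totals and -0.0028 with DESeq2. SNHG16 in KD minus SCR was -0.013 with DESeq2 size factors and -0.011 with DESeq2.

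With 1 library left out, the log2 ranges that crossed 0 were, in KD against SCR without LPS, -0.058 to 0.13 (SNHG1), -0.17 to 0.058 (SNHG5), -0.19 to 0.091 (SNHG6), -0.24 to 0.020 (SNHG12), -0.21 to 0.25 (SNHG15) and -0.28 to 0.31 (ZFAS1). In KD against WT they were -0.10 to 0.16 (SNHG12) without LPS and -0.072 to 0.076 (SNHG1) with LPS. In KD against SCR with LPS they were -0.00084 to 0.16 (SNHG1), -0.0096 to 0.11 (SNHG7) and -0.035 to 0.10 (SNHG12), and in SCR against WT with LPS -0.0041 to 0.083 (SNHG16). For LPS in WT they were -0.12 to 0.032 (SNHG6) and -0.037 to 0.13 (SNHG12), in SCR -0.13 to 0.0045 (SNHG1), and in KD -0.13 to 0.057 (SNHG1) and -0.078 to 0.17 (SNHG6). For the LPS response they were -0.054 to 0.14 (SNHG1) and -0.054 to 0.053 (SNHG16) in KD minus SCR, -0.10 to 0.31 (ZFAS1) in SCR minus WT, and -0.025 to 0.23 (SNHG6) and -0.41 to 0.054 (SNHG15) in KD minus WT.

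The depth was lowest for SNHG15, with 107 counts in its shallowest library.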
